A study of Mus musculus with 6 samples.

Results

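The genes described here encode the apolipoproteins, lipases and lipoprotein receptors of the liver, 36 genes chosen by name for their place in the assembly, remodelling and uptake of plasma lipoproteins. A gene was measured where the platform annotation gave a probe set its symbol alone, and the probe set with the highest mean over the 6 arrays stood for the gene. In this way 35 of the 36 genes had a value, all 35 lay above the filter on dim signals, and they are part of 12705 genes tested. Lipc, hepatic lipase, was not analysed here.

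The liver loads triglyceride onto apolipoprotein B in the endoplasmic reticulum and secretes the particle as very low density lipoprotein (VLDL). Lipases on the vessel wall strip the triglyceride, small exchangeable apolipoproteins switch those lipases on or off, and receptors on the hepatocyte take up the remnants. High density lipoprotein (HDL) forms when apolipoprotein A-I accepts cholesterol and phospholipid from membrane transporters, and it returns cholesterol to the liver.

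Whole liver RNA of 3 Retnla transgenic mice (called Tg 5, Tg 6 and Tg 7) was set against that of 3 non-transgenic mice (called non-Tg 1, non-Tg 2 and non-Tg 3), with 1 Affymetrix array of 45101 probe sets per mouse. The animals of both groups were C57BL6/J males, 3 months old, and shared the diet, an HFD with 21% fat and 0.15% cholesterol begun at 8 weeks of age and kept up for 4 weeks. Retnla encodes a secreted resistin-like protein, and the sources used here do not give the promoter or cell type that drives the transgene. Nothing in the labels ties the mice to litters or cages. The comparison asks which liver transcripts differ between these Tg and non-Tg mice on this diet. It cannot tell the transgene from any other difference between the groups, such as one of genetic background.

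The labels held up against the transgene: the log2 signal of Retnla was 16.04, 15.91 and 16.04 in Tg livers, against 6.03, 7.41 and 6.48 in non-Tg livers. The hepatocyte gene Alb, albumin, lay between 16.20 and 16.33 in Tg livers and between 16.24 and 16.39 in non-Tg livers. Of 10 hepatocyte markers 6 were higher and 4 lower in Tg livers, with a median difference of 0.01. At an unadjusted limma p under 0.05 stood 3 of them, or 30%, against 6.05% of all genes. All 3 were higher and none passed the adjusted threshold: Tat (1.12, groups apart), Ass1 (0.60) and Pck1 (0.49). These encode enzymes of amino acid breakdown, the urea cycle and gluconeogenesis. Median signals per array ran from 6.49 to 6.74. The bacterial spike-in control bioC split the arrays into 2 sets, at 9.57 in Tg 5, 9.71 in Tg 6 and 9.68 in non-Tg 1, and at 11.07 in Tg 7, 11.27 in non-Tg 2 and 10.98 in non-Tg 3. Each set holds both genotypes, with 1 mouse on one side and 2 on the other, so differences within the lower and the higher set, and from a fit with the set as a block, are given beside the pooled ones. Of 9 stellate cell markers 2 were higher and 7 lower, of 5 bile duct markers 1 and 4, and of 3 erythroid markers 3 and 0. Summed antilogged erythroid signals ran from 4469 to 6316 in Tg and from 3342 to 3862 in non-Tg livers. Those of stellate cell markers ran from 15563 to 19748 in Tg and from 17972 to 23041 in non-Tg livers. Signals of bulk liver do not tell fewer cells of a type from less RNA per cell.

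No lipoprotein gene passed the threshold of 0.05 on the limma p adjusted over all genes. The adjusted p ran from 0.385 for Lipg to 0.999 for Apoa5, while 0.0157% of all genes passed. At an unadjusted limma p under 0.05 stood 5 of the 35 genes, or 14.3%, against 6.05% of all genes. The genes were chosen with earlier results of these data known, so such shares are not an independent comparison. Lipg (endothelial lipase) and Lsr (a receptor for remnants) were the 2 with higher signals in Tg livers, against 2.93% of all genes, and Apob, Pon2 and Vldlr the 3 with lower signals, against 3.12%. That count of 5 moved with single mice: it was 9 without Tg 7, 2 without non-Tg 2 and 3 without non-Tg 3. A fit with the array sets as a block also counted 5, against 5.67% of all genes, but not the same ones: Apob lost its place there and Gpihbp1 joined. The Tg and non-Tg signals did not overlap for 6 of the 35 genes, or 17.1%, against 11.7% of all genes, and Abca1 was the one added. Of these 6, 2 were higher and 4 lower in Tg livers, against 6.04% and 5.64% of all genes. The median log2 difference, Tg minus non-Tg, was -0.01 over the 35 genes and 0.01 over all genes tested, with 16 genes higher and 19 lower in Tg livers.

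**Figure D1:**
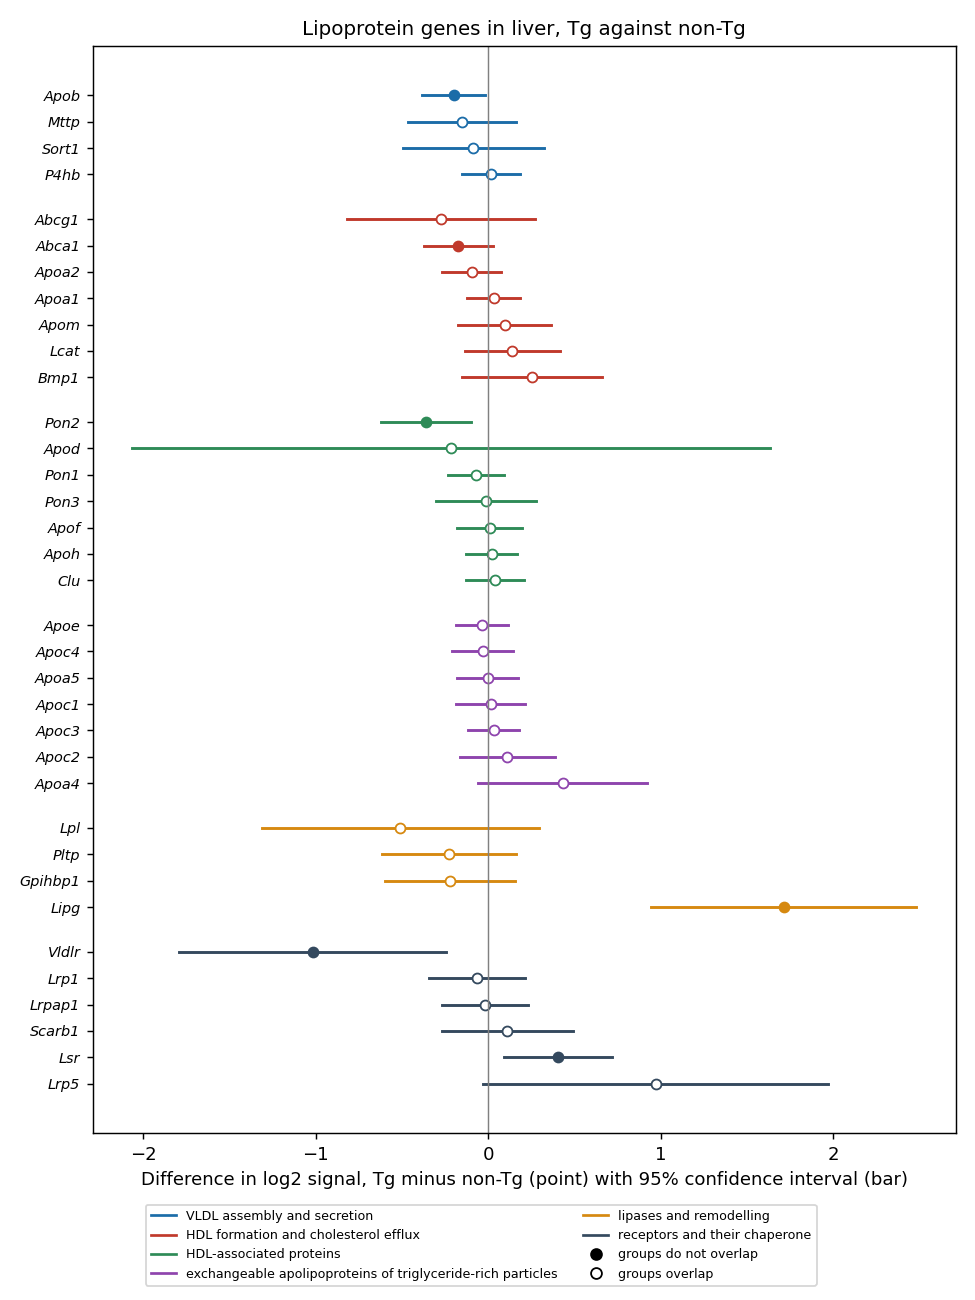
Difference in log2 signal between Tg and non-Tg livers for each of the 35 genes, with its 95% confidence interval from limma, ordered by role. Filled points mark the 6 genes whose groups did not overlap, with Lipg at 1.71 and Vldlr at -1.02 farthest from 0.

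The size of a difference went with the brightness of the probe set. In the 14 genes with a mean log2 signal above 14, among them Apoa1, Apoe, Apoc3 and Apob, no difference was larger in size than 0.20 and the median size was 0.03. Their 95% confidence intervals lay between -0.38 and 0.41. In the 21 dimmer genes the median size was 0.22 and the largest 1.71. Whether signals that bright still follow the amount of RNA was not tested. The spread between mice of a group was also smaller than for most genes: the median SD was 0.17 over the 35 genes and 0.27 over all genes.

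The windows before the transcription start are shown for the genes whose groups did not overlap, since these are described in most detail, although none passed the adjusted threshold. They are the 250 bases before the start in RefSeq, build GRCm38.p6, written 5' to 3' on the strand of the gene, and 24 of the 36 genes had a window. Lipg had none and is named only. Pon1 and Pon3 are added because Pon1, Pon3 and Pon2 follow each other on chromosome 6 with 0 other protein-coding genes between them, and Vldlr has 2 annotated starts. Capitals mark matches, on either strand, to the TATA box core TATAAA, the GC box GGGCGG and the hexamer AGGNCA, with N for any base. The last is a loose pattern for nuclear receptor half-sites, so a match need not be one.
Abca1, chr4:53159896-53160145, minus strand: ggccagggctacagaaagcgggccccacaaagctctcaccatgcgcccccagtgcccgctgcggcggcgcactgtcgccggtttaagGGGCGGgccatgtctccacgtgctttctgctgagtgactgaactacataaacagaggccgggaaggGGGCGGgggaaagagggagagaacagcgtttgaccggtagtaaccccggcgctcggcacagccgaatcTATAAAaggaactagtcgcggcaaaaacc
Apob, chr12:7977427-7977676, plus strand: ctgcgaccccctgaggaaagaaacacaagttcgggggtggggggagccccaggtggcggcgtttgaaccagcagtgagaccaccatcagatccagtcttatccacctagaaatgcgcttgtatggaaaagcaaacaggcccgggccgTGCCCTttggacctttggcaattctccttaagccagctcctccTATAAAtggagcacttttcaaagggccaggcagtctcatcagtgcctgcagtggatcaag
Lsr, chr7:30973470-30973719, minus strand: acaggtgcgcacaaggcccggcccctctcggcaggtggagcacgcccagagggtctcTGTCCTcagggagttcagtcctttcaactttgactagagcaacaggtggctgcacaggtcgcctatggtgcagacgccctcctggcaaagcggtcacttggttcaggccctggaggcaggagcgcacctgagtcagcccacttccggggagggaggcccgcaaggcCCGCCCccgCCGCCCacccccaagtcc
Pon2, chr6:5298341-5298590, minus strand: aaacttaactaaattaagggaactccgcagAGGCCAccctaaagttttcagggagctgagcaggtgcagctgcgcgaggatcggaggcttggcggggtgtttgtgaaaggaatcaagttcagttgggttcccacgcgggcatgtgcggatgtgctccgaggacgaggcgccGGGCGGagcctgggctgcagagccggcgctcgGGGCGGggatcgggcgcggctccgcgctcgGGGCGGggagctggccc
Pon1, chr6:5193947-5194196, minus strand: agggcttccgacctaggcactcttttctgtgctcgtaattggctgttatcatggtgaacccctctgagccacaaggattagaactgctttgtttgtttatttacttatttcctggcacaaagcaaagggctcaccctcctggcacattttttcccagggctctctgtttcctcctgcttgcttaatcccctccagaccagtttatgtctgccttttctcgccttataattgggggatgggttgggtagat
Pon3, chr6:5256234-5256483, minus strand: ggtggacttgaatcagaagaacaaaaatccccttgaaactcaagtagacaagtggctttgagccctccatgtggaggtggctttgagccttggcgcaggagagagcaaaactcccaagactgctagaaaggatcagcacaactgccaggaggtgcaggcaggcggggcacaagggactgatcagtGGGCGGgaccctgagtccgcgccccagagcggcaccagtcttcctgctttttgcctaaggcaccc
Vldlr, chr19:27216234-27216483, plus strand: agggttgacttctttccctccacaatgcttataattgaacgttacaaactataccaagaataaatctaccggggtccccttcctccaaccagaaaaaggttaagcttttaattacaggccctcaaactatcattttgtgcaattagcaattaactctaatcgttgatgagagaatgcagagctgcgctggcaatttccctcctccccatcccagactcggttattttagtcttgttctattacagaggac
Vldlr, chr19:27216770-27217019, plus strand: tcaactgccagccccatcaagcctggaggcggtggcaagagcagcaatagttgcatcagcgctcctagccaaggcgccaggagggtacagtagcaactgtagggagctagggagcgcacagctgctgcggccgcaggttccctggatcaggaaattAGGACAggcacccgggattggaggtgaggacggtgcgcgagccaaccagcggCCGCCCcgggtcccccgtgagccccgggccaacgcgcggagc

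Matches did not overlap each other in these windows. TATAAA begins at position -29 from the Abca1 start and at position -60 from the Apob start, and 12.4% of all promoter windows of this length hold it. GGGCGG is found 2 times in the Abca1 window, 2 times in Lsr, 3 times in Pon2, 1 time in Pon3 and 1 time in the second Vldlr window, against 32.7% of all windows with at least 1. AGGNCA is found in the Apob, Lsr and Pon2 windows and the second Vldlr window, and in 51.3% of all windows. A match describes letters only. The 3 paraoxonase neighbours differ in these letters, since the Pon1 window holds none of the hexamers.

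Among the lipases and remodelling proteins Lipg was higher in Tg livers, and Lpl, Gpihbp1 and Pltp were lower, with a median difference of -0.22 over the 4 and none past the adjusted threshold. Lipg encodes endothelial lipase, a phospholipase that acts mainly on HDL. Its log2 signal (probe set 1421262_at) was 8.45, 9.87 and 9.44 in Tg livers, against 7.29, 7.46 and 7.87 in non-Tg livers. Every Tg mouse lay above every non-Tg mouse, and Tg 5 was the nearest to them. The difference was 1.71 ± 0.343 (SE), or 3.28-fold with a 95% confidence interval from 1.93 to 5.59, and the limma adjusted p of 0.385 did not pass. With 3 mice against 3, the exact permutation p of 0.1 was the smallest that the 20 assignments can give.

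Lipg differed by 1.87 within the lower set of arrays and by 1.78 within the higher set. The block gave 1.82. Without Tg 5 the difference was 2.12 (limma adjusted p = 0.0541), and without Tg 6 it was 1.41 (limma adjusted p = 0.820). A second Lipg probe set above the filter gave 0.73 ± 0.454 (SE) with overlapping groups, and another, below the filter, gave 2.46 ± 1.01 (SE), also with overlap. Adding 64 to each signal before the log gave 1.44.

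Endothelial cells and macrophages can also make this lipase, so their markers were read beside it. Of 14 macrophage markers 13 were higher in Tg livers, or 92.9%, against 52.1% of all genes. At an unadjusted limma p under 0.05 stood 0 of the 14, against 6.05% of all genes. Their summed antilogged signal was 36004, 66401 and 24667 in Tg 5, Tg 6 and Tg 7, against 33442, 31523 and 34529 in the non-Tg mice. Tg 6 had both the highest macrophage sum and the highest Lipg signal, but Tg 7 had the lowest macrophage sum with a Lipg signal of 9.44. Of 15 endothelial markers 7 were higher and 8 lower, with sums from 12980 to 16097 in Tg and from 13993 to 14620 in non-Tg livers. The part of these cells in the Lipg difference was not tested.

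Lpl, lipoprotein lipase, hydrolyses triglyceride of circulating particles and is low in adult hepatocytes. Its log2 signal was 11.37, 10.79 and 10.16 in Tg livers, against 10.94, 12.08 and 10.83 in non-Tg livers. The groups overlapped, and the highest signal was that of non-Tg 2. The difference was -0.51 ± 0.359 (SE), with a 95% confidence interval from -1.31 to 0.30. Within the lower set of arrays Lpl differed by 0.14 and within the higher set by -1.30, and without non-Tg 2 the difference was -0.11. The other Lpl probe set gave -0.24. Macrophages and adipocytes make Lpl too: of 10 adipocyte markers 4 were bright enough to test, with sums from 1940 to 2153 in Tg and from 1744 to 2600 in non-Tg livers, and their part in the Lpl values was not tested.

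Gpihbp1 carries Lpl across capillary endothelium. Its mean was 10.68 ± 0.282 over Tg mice and 10.90 ± 0.191 over non-Tg mice (SD, n = 3 each). The groups overlapped at a difference of -0.22. With the block it was -0.34 ± 0.126 (SE; limma adjusted p = 0.787). Pltp is the phospholipid transfer protein that moves surface lipids onto HDL. Its log2 signal was 11.66, 11.93 and 11.40 in Tg livers, against 11.69, 11.77 and 12.21 in non-Tg livers. The groups overlapped, and Pltp differed by -0.23 ± 0.173 (SE), while its other probe set gave 0.32 ± 0.226 (SE). Pltp differed by 0.11 in the lower and -0.59 in the higher array set, so its direction depends on the probe set and on the arrays.

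**Figure D2:**
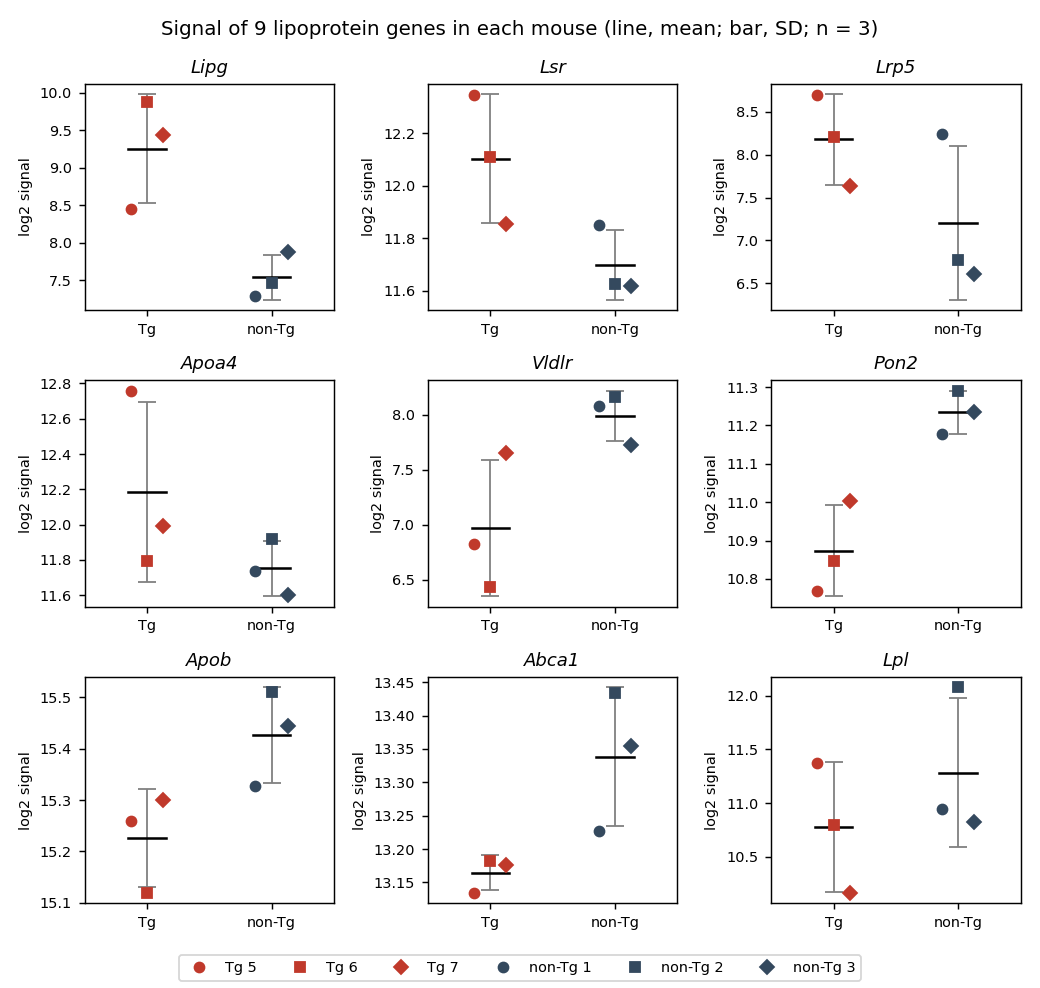
Log2 signal of 9 lipoprotein genes in each of the 3 Tg and 3 non-Tg mice, with the group mean (line) and SD (bar). Each axis has its own range and does not start at 0. The groups stand apart for Lipg, Lsr, Vldlr, Pon2, Apob and Abca1, and overlap for Lrp5, Apoa4 and Lpl.

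Among the 6 receptor genes 3 were higher and 3 lower in Tg livers, with a median difference of 0.05, and 0 passed the adjusted threshold. Lsr was higher and Vldlr lower without overlap. Lsr, the lipolysis-stimulated lipoprotein receptor, takes up triglyceride-rich remnants in the liver. Its log2 signal (probe set 1451255_at) was 12.35, 12.11 and 11.853 in Tg livers, against 11.8515, 11.62 and 11.62 in non-Tg livers. The groups barely parted, because Tg 7 and non-Tg 1 were nearly level. Lsr differed by 0.40 ± 0.140 (SE), or 1.32-fold with a 95% confidence interval from 1.06 to 1.65 (limma adjusted p = 0.782). Lsr differed by 0.38 in the lower and 0.23 in the higher array set, and the sets themselves differed by -0.40, higher minus lower set. The other Lsr probe set, below the filter, gave 0.37 ± 1.00 (SE) with overlapping groups.

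Vldlr, a receptor for VLDL found mainly outside the liver, had a log2 signal (probe set 1434465_x_at) of 6.83, 6.43 and 7.65 in Tg livers, against 8.08, 8.16 and 7.73 in non-Tg livers. All 3 Tg mice lay below the non-Tg mice, with Tg 7 just under non-Tg 3. The difference was -1.02 ± 0.346 (SE; limma adjusted p = 0.779), or 0.494-fold, but it was -1.44 within the lower set of arrays and -0.29 within the higher set. It was -1.36 without Tg 7, and -0.73 with 64 added before the log. Of the 6 Vldlr probe sets 5 lay below the filter, and they went both ways, 3 lower and 2 higher in Tg livers, from -1.34 to 2.21. The x in the probe set name marks probes that may also match other transcripts, so the Vldlr value is uncertain.

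Lrp5, a coreceptor of Wnt ligands that also binds apolipoprotein E, was at 8.69, 8.21 and 7.63 in Tg livers, against 8.24, 6.77 and 6.61 in non-Tg livers. Within each genotype the mice of the lower set of arrays had the higher signals. The difference between the genotypes was 0.97 ± 0.447 (SE; limma adjusted p = 0.807), and between the sets -1.37, higher minus lower set. Between genotypes Lrp5 differed by 0.21 in the lower and 0.94 in the higher array set, and the block gave 0.58. The remaining receptor genes showed small differences with overlapping groups.

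Scarb1 encodes SR-BI, the receptor that takes up cholesteryl ester from HDL. Its log2 signal was 13.19, 13.15 and 12.60 in Tg livers, against 13.11, 12.82 and 12.68 in non-Tg livers. Tg 7 was the lowest and the groups overlapped. Scarb1 differed by 0.11 with a 95% confidence interval from -0.27 to 0.49. Its other probe sets gave -0.08 and -0.17. Lrp1, a large endocytic receptor for remnants, differed by -0.06 (95% confidence interval -0.34 to 0.21), and a dimmer probe set gave 0.25. Lrpap1, the chaperone that keeps Lrp family receptors free of ligand during their synthesis, differed by -0.02 (95% confidence interval -0.27 to 0.23), and its 3 other probe sets gave -0.17, -0.17 and -0.04. Each of these intervals includes 0, which does not show that the groups are alike.

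Of the 4 VLDL assembly genes 1 was higher and 3 lower in Tg livers, with a median difference of -0.12, or -0.03 with the block, and 0 past the adjusted threshold. The 95% confidence intervals of Mttp, Sort1 and P4hb included 0. Apob is the structural protein of VLDL, with 1 molecule per particle. Its log2 signal (probe set 1455593_at) was 15.26, 15.12 and 15.30 in Tg livers, against 15.33, 15.51 and 15.44 in non-Tg livers. The groups did not overlap, although Tg 7 and non-Tg 1 lay close together. The difference was -0.20 ± 0.0817 (SE), or 0.870-fold with a 95% confidence interval from 0.766 to 0.988, and the limma adjusted p was 0.807. Apob differed by -0.14 in the lower and -0.18 in the higher array set, and by -0.16 with the block. The second Apob probe set, which is dimmer, gave less than 0.01 in size, with an SE of 0.186.

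Mttp encodes the transfer protein that lipidates apolipoprotein B. It was at 12.59, 12.67 and 13.04 in Tg livers, against 12.73, 12.94 and 13.08 in non-Tg livers. The groups overlapped, and the difference of -0.15 became -0.04 with the block and was under 0.01 in size on the other probe set. The sets differed by 0.36, higher minus lower set. P4hb, protein disulfide isomerase and the partner subunit of Mttp, differed by 0.02 (95% confidence interval -0.15 to 0.19). Sort1, a sorting receptor that binds apolipoprotein B, differed by -0.09 (95% confidence interval -0.50 to 0.32), and its other probe sets gave -0.14 and -0.15.

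Of 7 genes of HDL formation 4 were higher and 3 lower in Tg livers, with a median difference of 0.03 and 0 past the adjusted threshold. The groups parted for Abca1 and overlapped for the other genes. Abca1 loads cholesterol and phospholipid onto apolipoprotein A-I. Its log2 signal (probe set 1421840_at) was 13.13, 13.18 and 13.18 in Tg livers, against 13.23, 13.43 and 13.35 in non-Tg livers. The Tg signals lay close together, and non-Tg 1 was the nearest of the other group. The difference was -0.17 ± 0.0893 (SE; limma adjusted p = 0.820), with a 95% confidence interval from -0.37 to 0.03. It was -0.07 in the lower and -0.22 in the higher array set, and the other probe sets gave 0.02 and -0.01.

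Abcg1, which moves cholesterol to HDL already formed, had a mean of 8.89 ± 0.351 over Tg mice and 9.17 ± 0.372 over non-Tg mice (SD, n = 3 each). The groups overlapped at a difference of -0.27. A dimmer Abcg1 probe set gave 0.19. Apoa1, the main protein of HDL, had a log2 signal of 16.80, 16.64 and 16.65 in Tg livers, against 16.65, 16.64 and 16.71 in non-Tg livers. The groups overlapped. Apoa1 differed by 0.03, with a 95% confidence interval from -0.12 to 0.18, and its 3 other probe sets each gave 0.01.

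Apoa2, the next protein of HDL in amount, differed by -0.10 (95% confidence interval -0.27 to 0.08). Apom, which carries sphingosine-1-phosphate on HDL, differed by 0.10 on the brightest probe set and by 0.19 on the other. Lcat, the enzyme that esterifies cholesterol on HDL, differed by 0.14 and by 0.04 with the block. Bmp1, a protease that removes the propeptide of apolipoprotein A-I, differed by 0.25, with 0.20 in the lower and 0.01 in the higher set of arrays. The second Bmp1 probe set above the filter gave 0.16, and another, below the filter, gave 0.34. None of these 4 genes separated the groups.

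Of 7 genes for proteins that travel on HDL or are related to them, 3 were higher and 4 lower in Tg livers, with a median difference of -0.01 and 0 past the adjusted threshold. The groups parted for Pon2 and overlapped for Pon1 and Pon3. The paraoxonases are lactonases, and in mammals Pon1 and Pon3 circulate on HDL while Pon2 stays in the cell. Pon2 had a log2 signal (probe set 1429019_s_at) of 10.77, 10.85 and 11.003 in Tg livers, against 11.18, 11.29 and 11.24 in non-Tg livers. All Tg mice lay below all non-Tg mice. The difference was -0.36 ± 0.116 (SE), or 0.778-fold with a 95% confidence interval from 0.650 to 0.932 (limma adjusted p = 0.775).

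Pon2 differed by -0.37 in the lower and -0.26 in the higher array set, and leaving out single mice gave -0.43 to -0.31. The other Pon2 probe sets above the filter gave -0.19 and -0.08 with overlapping groups, and 1 below the filter gave 2.39 ± 0.963 (SE), in the opposite direction. Pon1 was at 15.36, 15.51 and 15.51 in Tg livers, against 15.54, 15.49 and 15.56 in non-Tg livers. It differed by -0.07 (95% confidence interval -0.24 to 0.09). Pon3 differed by -0.01 (95% confidence interval -0.30 to 0.28). Whether Pon2 differed from its neighbours in this was not tested.

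Clu encodes clusterin, a chaperone of secreted proteins also called apolipoprotein J. Its log2 signal was 15.88, 15.75 and 15.71 in Tg livers, against 15.67, 15.81 and 15.73 in non-Tg livers. The groups overlapped and Clu differed by 0.04, while its 3 other probe sets gave 0.02, -0.02 and 0.07. Apoh, beta-2-glycoprotein I, differed by 0.02, and by 0.04 on its other probe set. Apof, which inhibits cholesteryl ester transfer in humans, differed by 0.01. For these 3 genes no bound of a 95% confidence interval lay beyond -0.18 or 0.21. Apod, a lipocalin, was dim: 3.88, 7.05 and 6.80 in Tg livers, against 6.31, 5.79 and 6.28 in non-Tg livers. Tg 5 lay far below the other mice, while Tg 6 and Tg 7 lay above every non-Tg mouse. The 95% confidence interval from -2.06 to 1.63 leaves the direction of Apod undetermined. Without Tg 5 the difference was 0.80, against -0.22 with all 6 mice. The other Apod probe set, below the filter, gave 1.17 ± 1.05 (SE) with overlapping groups.

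The exchangeable apolipoproteins lie in gene clusters, with Apoa1, Apoc3, Apoa4 and Apoa5 next to each other on chromosome 9 and Apoc2, Apoc4, Apoc1 and Apoe on chromosome 7. Of the 7 exchangeable genes 4 were higher and 3 lower in Tg livers, with a median difference of 0.01. The groups overlapped for all 7, 0 passed the adjusted threshold, and the differences ran from -0.04 to 0.43. Apoa4, an apolipoprotein of intestine and liver that responds to fat load, was the widest. Its log2 signal was 12.76, 11.79 and 11.99 in Tg livers, against 11.74, 11.92 and 11.60 in non-Tg livers. Tg 5 was high, Tg 7 lay just above every non-Tg mouse, and Tg 6 lay among the non-Tg mice.

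Apoa4 differed by 0.43 ± 0.220 (SE; limma adjusted p = 0.816), and by 0.14 without Tg 5. Its second probe set gave 0.39, with Tg 5 and Tg 7 above every non-Tg mouse and Tg 6 below them. Apoc3, which restrains lipolysis and remnant uptake, was at 15.94, 15.84 and 15.83 in Tg livers, against 15.83, 15.84 and 15.85 in non-Tg livers. It differed by 0.03 (95% confidence interval -0.12 to 0.18). Apoa5, which promotes lipolysis, differed by less than 0.01 in size, with a 95% confidence interval from -0.18 to 0.18.

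Apoe, the ligand that remnant receptors recognise, was at 16.27, 16.15 and 16.19 in Tg livers, against 16.18, 16.25 and 16.28 in non-Tg livers. The groups overlapped, and the difference was -0.04 (95% confidence interval -0.19 to 0.11). Apoc2, the cofactor that Lpl needs, differed by 0.11 (95% confidence interval -0.17 to 0.39). Apoc1 differed by 0.01 (95% confidence interval -0.18 to 0.21) and Apoc4 by -0.03 (95% confidence interval -0.21 to 0.15).

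**Figure D3:**
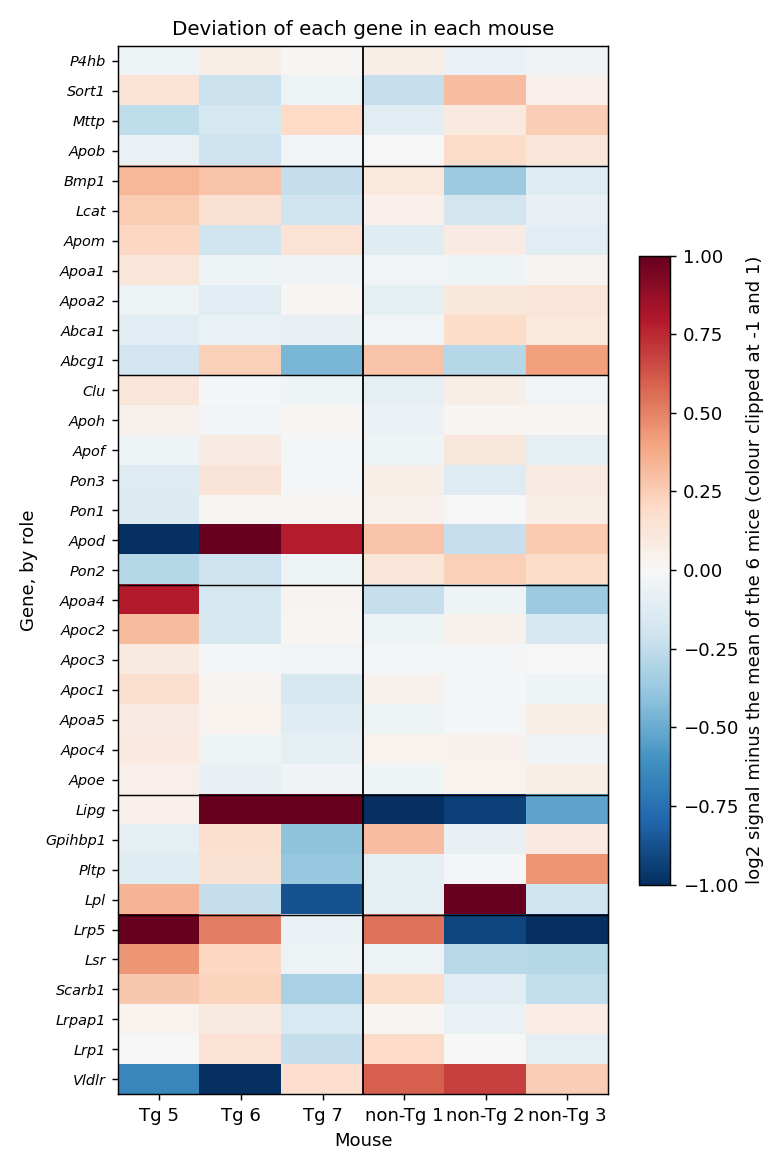
Log2 signal of each gene in each mouse minus the gene's mean over the 6 mice, with genes in rows by role and Tg mice left of non-Tg mice. Lipg is above its mean in all 3 Tg mice and below it in all non-Tg mice, and Tg 5 stands out for Apoa4.

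Probe sets of a gene did not always go the same way. Of the 73 probe sets of these genes, 63 lay above the filter and 10 below it. Of the 18 genes with several probe sets above the filter, 12 had them all in 1 direction and 6 in both. The median size of a difference was 0.11 for probe sets above the filter and 1.21 for those below it, so values of the dim probe sets carry little weight.

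**Figure D4:**
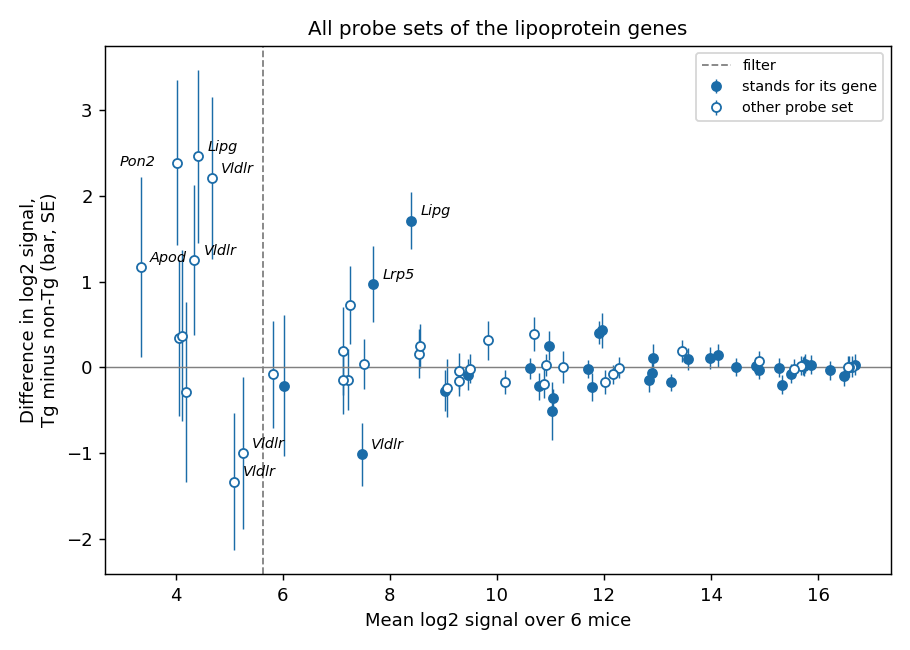
Difference in log2 signal between Tg and non-Tg livers (point, with SE as bar) against the mean log2 signal over the 6 mice for each of the 73 probe sets. The dashed line is the filter at 5.63. The 10 probe sets left of it scatter widely, and Lipg, Lrp5 and Vldlr are the genes right of it with differences over 0.9 in size.

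Genes that work with these proteins were read from 4 further lists, and 0 of their genes passed over all genes. In the secretion pathway, 10 of 18 genes were higher and 8 lower in Tg livers, with 1 higher and 0 lower at an unadjusted p under 0.05. That is 5.56% of the list, near the 6.05% of all genes. The gene was Creb3l3, a transcription factor that drives Apoa4 and other lipoprotein genes in mouse liver. It was at 13.31, 13.24 and 13.29 in Tg livers, against 13.15, 12.99 and 13.07 in non-Tg livers. The groups did not overlap, and the difference was 0.21 ± 0.0871 (SE; limma adjusted p = 0.807). Signals of A1cf, Sar1a and Pla2g12b were also higher in Tg livers without overlap. That makes 4 of the 18 genes, or 22.2%, against 11.7% of all genes. As the list was chosen with earlier results of these data known, this share is not an independent comparison.

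Of 13 lipase cofactors and inhibitors 7 were higher and 6 lower, and 0 passed at an unadjusted p under 0.05, against 6.05% of all genes. The smallest p was that of Ces1g, a carboxylesterase, which differed by -0.28 ± 0.146 (SE). Of 13 receptor partners and scavenger receptors 8 were higher and 5 lower. Cd36, a fatty acid translocase, was at 10.28, 10.82 and 10.27 in Tg livers, against 10.54, 11.03 and 11.25 in non-Tg livers. The groups overlapped. Its difference of -0.49 was 0.01 within the lower and -0.87 within the higher set of arrays.

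Of 18 transcription factors of apolipoprotein genes 10 were higher and 8 lower. At an unadjusted limma p under 0.05 stood 2 higher and 3 lower, or 27.8% of the list, against 6.05% of all genes. The list was chosen with earlier results of these data known, so the shares are not an independent comparison. Pparg, a nuclear receptor of lipid storage with Cd36 among its targets, was at 7.63, 8.39 and 7.65 in Tg livers, against 8.80, 8.46 and 8.92 in non-Tg livers. All Tg mice lay below all non-Tg mice, and the difference was -0.84 ± 0.259 (SE; limma adjusted p = 0.735). Cebpb, a factor of the acute phase and of fasting, differed by 0.35 on the brightest probe set and by 0.64 on the other. The remaining 3 were Nr1h3 (LXR alpha) at 0.30, Srebf1 at -0.41 and Nr5a2 (LRH-1) at -0.55, and other Nr5a2 probe sets gave -0.02 and 0.03. Across the 4 lists the median differences lay between 0.01 and 0.05.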

How the data were processed

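Liver RNA of 6 mice was measured on 1 array each. The deposited table holds 45101 probe sets in log2 signals; the authors' values came from GCOS per the submitters' processing notes, and the sources used here do not give its version or algorithm. Antilogged signals have a mean of 500.0 on each array with 2% trimmed at each end, so the arrays were scaled alike. The number of arrays limits precision.

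The 64 control probe sets were set aside. The platform annotation gave 1 symbol for 34945 probe sets, several for 932 and none for 9160, and the last 2 kinds were left out. Probe sets above the 40th percentile of the mean (log2 5.63) were kept, and the brightest stood for a gene, giving 12705 genes. Nothing was added before the log. Tg and non-Tg mice were compared with limma 3.58.1 (R 4.3.3), moderated with an intensity trend (2-sided), and Benjamini-Hochberg adjustment over all genes. SE and 95% confidence intervals come from that fit, and those of further probe sets from a like fit over all probe sets. The procedure was tested on simulated data with independent genes and changes larger than any difference seen in the lipoprotein genes. That test does not cover the array sets or small differences.

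Genes, roles and lists were chosen with earlier results of these data known. All 36 genes are named; values per mouse are given for those with an unadjusted p under 0.05, without overlap, or brightest in their role, with some others chosen after their values were seen. From companion lists genes with an unadjusted p under 0.05 are named, else the one of smallest p. Alternatives were other constants, filters, normalizations, moderation, array weights, the mean of probe sets, the bioC sets as a block, and leaving out each mouse.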

Additional observations from a re-analysis of the deposited data

How the results depend on the processing

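In each of 18 alternatives 0 lipoprotein genes passed the adjusted threshold. The sign of the difference held throughout for 18 of the 35 genes, Lipg, Lsr, Vldlr, Pon2, Apob and Abca1 among them. The groups of these named genes did not overlap, so leaving out a mouse could not turn their sign. Changing only the filter or the moderation left their differences as they were, so the kept signs are weak evidence of stability. An unadjusted limma p under 0.05 was found for Lipg in 18 of 18 alternatives, for Pon2 and Vldlr in 17 each, for Lsr in 14 and for Apob in 10. The limma adjusted p of Lipg ran from 0.0541 to 0.996. The number of all genes past the threshold, 2 with the settings as reported, was 4 with 16 and 6 with 64 added before the log, 6 with the filter at the 20th percentile, 5 with arrays centred on the median, 4 with robust moderation and 4 with the bioC sets as a replicate block. Centring on the median gave a median difference of -0.0861 over the lipoprotein genes and turned the signs of P4hb (-0.0567), Apoa1 (-0.0433), Apof (-0.0653), Apoh (-0.0543), Clu (-0.0347), Apoc1 (-0.0600) and Apoc3 (-0.0431), by its construction a shift of every gene alike. The number of lipoprotein genes with an unadjusted p under 0.05, reported as 5, was 3 without the intensity trend and 3 with the mean of a gene's probe sets. No paired analysis was possible because the mice of the groups share no replicate number. With 3 mice a group, dim probe sets and small differences stay unresolved.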

Other observations

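The mice differed in which of them was highest, irrespective of genotype. Tg 5 had the highest signal for 15 of the 35 lipoprotein genes, or 42.9%, against 22.9% of all genes, and for 7 of the 8 genes of the Apoa1 and Apoe clusters, with Apoe as the exception. Tg 7 had the highest signal for 0 of the 35 and the lowest for 12, or 34.3%, against 16.7% of all genes. This was noticed after the values were seen, and no test was made of it.

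Of the 35 genes, 20 differed more in size between the 2 sets of arrays than between genotypes, or 57.1%, against 56.2% of all genes. Of these 20, Lrp5 (-1.37, higher minus lower set), Apod (0.55), Bmp1 (-0.48) and Scarb1 (-0.45) had the widest differences between the sets.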
